A study of Mus musculus with 28 samples.

Results

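Brain-enriched microRNAs (miRNAs) were followed in the small RNA of plasma extracellular vesicles (EVs): mmu-miR-9-5p, mmu-miR-9-3p, mmu-miR-124-3p, mmu-miR-128-3p, mmu-miR-129-5p, mmu-miR-132-3p, mmu-miR-138-5p, mmu-miR-218-5p and mmu-miR-7a-5p, written from here on without the species prefix mmu. The 9 were chosen by name as miRNAs enriched in neurons and brain, and all 9 were listed among the 1240 miRNA entries of a count table of 18710 entries. EVs came from plasma of 2-month-old mice, either wild type (WT) or heterozygous for Klotho (KlHET, which lack one of the copies of the gene Kl), bred in-house. Neuromuscular electrical stimulation (NMES) was given to both hind legs at 9 mA under 2.5% isoflurane, in 2 sets of 10 stimulations per leg, over 5 sessions held every other day, and samples were taken 24 h after the last session. Control mice received 15 min of the same anesthesia on the same days. The groups were WT control (n = 6 libraries), WT NMES (n = 6), KlHET control (n = 8) and KlHET NMES (n = 8). All WT library names begin with A and all KlHET names with J, so genotype and whatever that letter marks cannot be told apart.

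A miRNA is a short RNA that guides an Argonaute protein to messenger RNAs, mainly through its seed, the bases next to its 5′ end, and lowers their translation or stability. Both arms of a hairpin precursor can yield a mature miRNA, which is why miR-9-5p and miR-9-3p are counted apart. EVs carry miRNAs out of many cell types into plasma, where those of blood cells and liver are abundant and those of neurons are usually scarce. In a vesicle preparation, more vesicles from one cell type and more of a miRNA per vesicle cannot be told apart.

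The mature sequences that identify the members are shown because the counts rest on these short stretches and because seeds group them. Of the 9 names, 8 were matched in the RefSeq table (GRCm38.p6), and each sequence is written 5′ to 3′ with its seed, bases 2 to 8, in capitals.
miR-9-5p: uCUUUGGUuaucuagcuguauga
miR-9-3p: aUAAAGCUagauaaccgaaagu
miR-128-3p: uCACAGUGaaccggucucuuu
miR-129-5p: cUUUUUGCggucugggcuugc
miR-132-3p: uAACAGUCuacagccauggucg
miR-138-5p: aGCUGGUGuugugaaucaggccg
miR-218-5p: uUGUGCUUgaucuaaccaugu
miR-7a-5p: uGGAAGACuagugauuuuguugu
These 8 members have 8 different seeds, so no seed is shared within the set. Outside the set, miR-7002-3p has the seed of miR-218-5p and was not listed in the table. miR-212-3p has the seed of miR-132-3p and miR-7b-5p that of miR-7a-5p, and both of these relatives were listed in the table.
miR-212-3p: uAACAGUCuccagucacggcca
miR-7b-5p: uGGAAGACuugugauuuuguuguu
miR-7b-5p differs from miR-7a-5p at 1 of the 23 positions compared, and miR-212-3p from miR-132-3p at 5 of 22, and how well the counting kept such near-identical miRNAs apart was not tested.

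Most members come from more than one hairpin, and a mature read cannot be assigned to one of them. miR-9 has 3 loci, Mir9-1 (chr3:88215598-88215686, plus strand) and Mir9-3 (chr7:79505264-79505353, plus strand) in introns of the long non-coding genes Gm3764 and Mir9-3hg, and Mir9-2 (chr13:83738814-83738885, plus strand) in an exon of C130071C03Rik. miR-128-3p comes from Mir128-1 (chr1:128202361-128202430, plus strand), in an intron of R3hdm1, and Mir128-2 (chr9:112118636-112118711, minus strand), in an intron of Arpp21. miR-218-5p comes from Mir218-1 (chr5:48223942-48224051, plus strand) and Mir218-2 (chr11:35616816-35616925, plus strand), in introns of the axon guidance genes Slit2 and Slit3. miR-7a-5p comes from Mir7-1 (chr13:58392779-58392886, minus strand), in an intron of the RNA-binding protein gene Hnrnpk, and Mir7-2 (chr7:78888277-78888373, plus strand), which lies in no other annotated gene. miR-129-5p comes from Mir129-2 (chr2:94241364-94241453, minus strand), in an intron of Mir670hg, and Mir129-1 (chr6:29022619-29022691, plus strand), in an exon of Gm3294. miR-138-5p comes from Mir138-2 (chr8:94324311-94324381, plus strand), in an exon of C78859, and Mir138-1 (chr9:122682876-122682974, plus strand), in an exon of the pseudogene Gm47135. miR-132-3p has the single locus Mir132 (chr11:75173682-75173747, plus strand), in an intron of 1700016P03Rik.

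Libraries held 531261 to 3389206 counts in all, of which 8992 to 96496 lay on miRNA entries. Levels are given as raw counts or as CPM, counts per 1000000 of the library's counts on the 129 miRNA entries that passed a filter on low counts, after scaling that total by the trimmed mean of M-values (TMM). KlHET control library J3517 stood apart, with a TMM factor of 0.0346, so that a mere 3 counts correspond to 1388 CPM there, against 42.8 to 307 CPM in the other libraries. A level under such a 3-count floor is close to the limit of detection, and the floors cover counting error only, since the reads carry no molecular identifiers.

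The 9 members made up a small share of miRNA counts in nearly all libraries and a large share in A3206, a WT control. Over the 26 libraries other than A3206 and J3537 the share ran from 0.0136% in J3517 to 1.15% in J3527, with a median of 0.458%. In A3206 it was 15.8% (15288 of 96496 counts; exact 95% binomial interval, 15.6 to 16.1%), and in the KlHET NMES library J3537 it was 8.13% (1219 of 15000 counts; 7.69 to 8.58%). These are the libraries that stand apart in the following results, and the group comparisons are therefore also given without one or both of them, where leaving out both together was chosen after seeing the data.

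**Figure D1:**
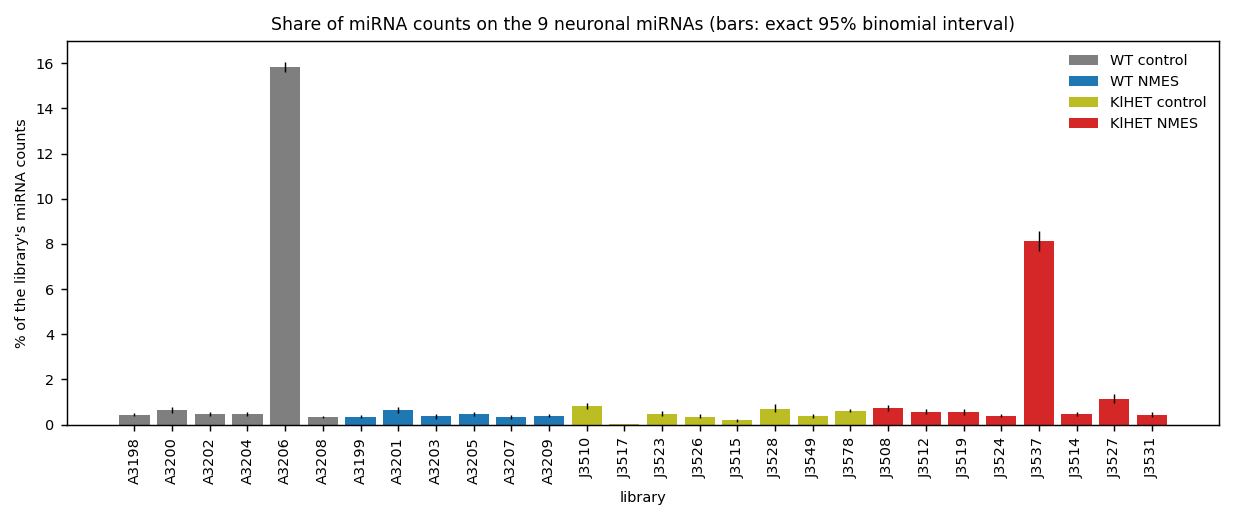
Share of miRNA counts on the 9 neuronal miRNAs in each of the 28 libraries (bars, % of the library's miRNA counts; error bars, exact 95% binomial interval; colours, the 4 groups). A3206 reached 15.8% and J3537 8.13%, while the other 26 libraries lay at or below 1.15%.

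J3537 was not a deep library: its 15000 miRNA counts lay below the median of 20379 over all libraries, whereas A3206 was the deepest in miRNA counts. Of the 9 members, 8 had their highest CPM of all libraries in A3206, and for these 8 the second-highest was J3537. The exception was miR-138-5p, with 3 counts in J3514 (173 CPM) against 12 in A3206 (171 CPM). As CPM of miRNA counts without TMM scaling, A3206 was highest for 7 members and J3537 for miR-9-3p (733 against 632), and as CPM of all counts in the library A3206 was highest for all 9. Among all 129 miRNA entries that passed the filter on low counts, 31 (24.0%) were highest in A3206, and 12 (9.30%) were highest there and second in J3537, of which 4 were members. The other 8 of those 12 were miR-26a-5p, let-7g-5p, miR-99a-5p, miR-125b-5p, miR-139-5p, miR-181b-5p, miR-379-5p and miR-708-3p.

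miR-128-3p, a neuron-enriched miRNA known in mice to restrain neuronal excitability, was the most counted member and the only one with counts in all 28 libraries. It ranged over 1611, 2039.5 and 116380 CPM (lowest, median and highest) in WT controls and over 1043, 1585 and 2372 CPM in WT NMES. In KlHET it ranged over 732, 2477 and 4369 CPM in controls and over 1351, 2619.7 and 25544 CPM with NMES. The 4 groups overlapped, and the highest WT control and KlHET NMES values belonged to A3206 (8154 counts) and J3537 (484 counts), with the next at 2565 and 2867 CPM.

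miR-9-5p, a regulator of neural progenitor proliferation and neuronal differentiation, was present in 27 libraries. Its lowest, median and highest levels were 68.2, 568 and 39636 CPM in WT controls and 35.3, 266 and 889 CPM in WT NMES. In KlHET they were 0, 148 and 1851 CPM in controls and 260.1, 601 and 17522 CPM with NMES. All groups overlapped. A3206 held 2777 counts and J3537 332, and the KlHET control maximum was J3517, where it rested on 4 counts. With A3206 and J3537 left out, the highest WT control and KlHET NMES libraries stood at 777 and 2092 CPM.

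miR-7a-5p, known from neurons and from endocrine cells of the pancreas and pituitary, was also present in 27 libraries. It spanned 567, 2110.2 and 36881 CPM (lowest, median, highest) in WT controls and 633, 1252 and 1625 CPM in WT NMES. It spanned 0, 1425 and 2485 CPM in KlHET controls and 954, 1701 and 11928 CPM in KlHET NMES. The 0 was that of J3517, whose 3-count floor of 1388 CPM lay close to the group median, so it does not show a lower level there. The groups overlapped again, with A3206 (2584 counts) and J3537 (226 counts) at the top and the next libraries of their groups at 3469 and 4107 CPM. Of all its counts, 68.3% came from A3206, the lowest such share among the 9 members.

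miR-218-5p, which is enriched in motor neurons, was counted in 22 libraries. Its lowest, median and highest levels were 22.7, 176 and 17013 CPM in WT controls and 0, 183 and 495 CPM in WT NMES. They were 0, 216 and 819.6 CPM in KlHET controls and 0, 247 and 7072 CPM in KlHET NMES. Outside A3206 (1192 counts) and J3537 (134 counts) no library held more than 18 counts, and the groups overlapped.

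The remaining 5 members were near or under the floor outside those libraries and did not pass the filter, so no fold change is given for them. miR-124-3p, the most neuron-restricted of the set and a repressor of non-neuronal transcripts, had 167 counts in A3206 and 14 in J3537. Of the 26 others, 3 libraries held 1 or 2 counts of it, and 23 held 0. Its counts therefore lay 97.8% in A3206 and J3537.

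miR-132-3p, which is induced by neuronal activity through the transcription factor CREB, had 167 counts in A3206, 4 in the WT control A3198, 4 in the KlHET control J3578 and 3 in J3537. These 4 of 28 libraries were the only ones with counts of it. Zeros were thus the rule in every group, and all 6 WT NMES libraries, whose floors of 3 counts lay at 89.8 to 247 CPM, were among those with 0. Its A3206 level of 2384 CPM was 15.1 times that of J3537 (158 CPM), the widest gap between the 2 libraries among the 8 members counted in both.

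miR-129-5p, which is abundant in brain and acts on synaptic transcripts, had 174 counts in A3206 and 15 in J3537. It was counted in 8 of the other 26 libraries, at up to 15 counts in J3578. miR-9-3p, the opposite arm of the miR-9 hairpins, had 61 counts in A3206, 11 in J3537 and at most 2 elsewhere, in 6 of 26 libraries. miR-138-5p, which limits the size of dendritic spines, had 12 counts in A3206, 3 in J3514 and 0 in the other 26 libraries, J3537 among them. With each library thinned to 8992 miRNA counts, miR-9-3p was found in 1 KlHET control library and no WT NMES library, against 4 and 1 unthinned.

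**Figure D2:**
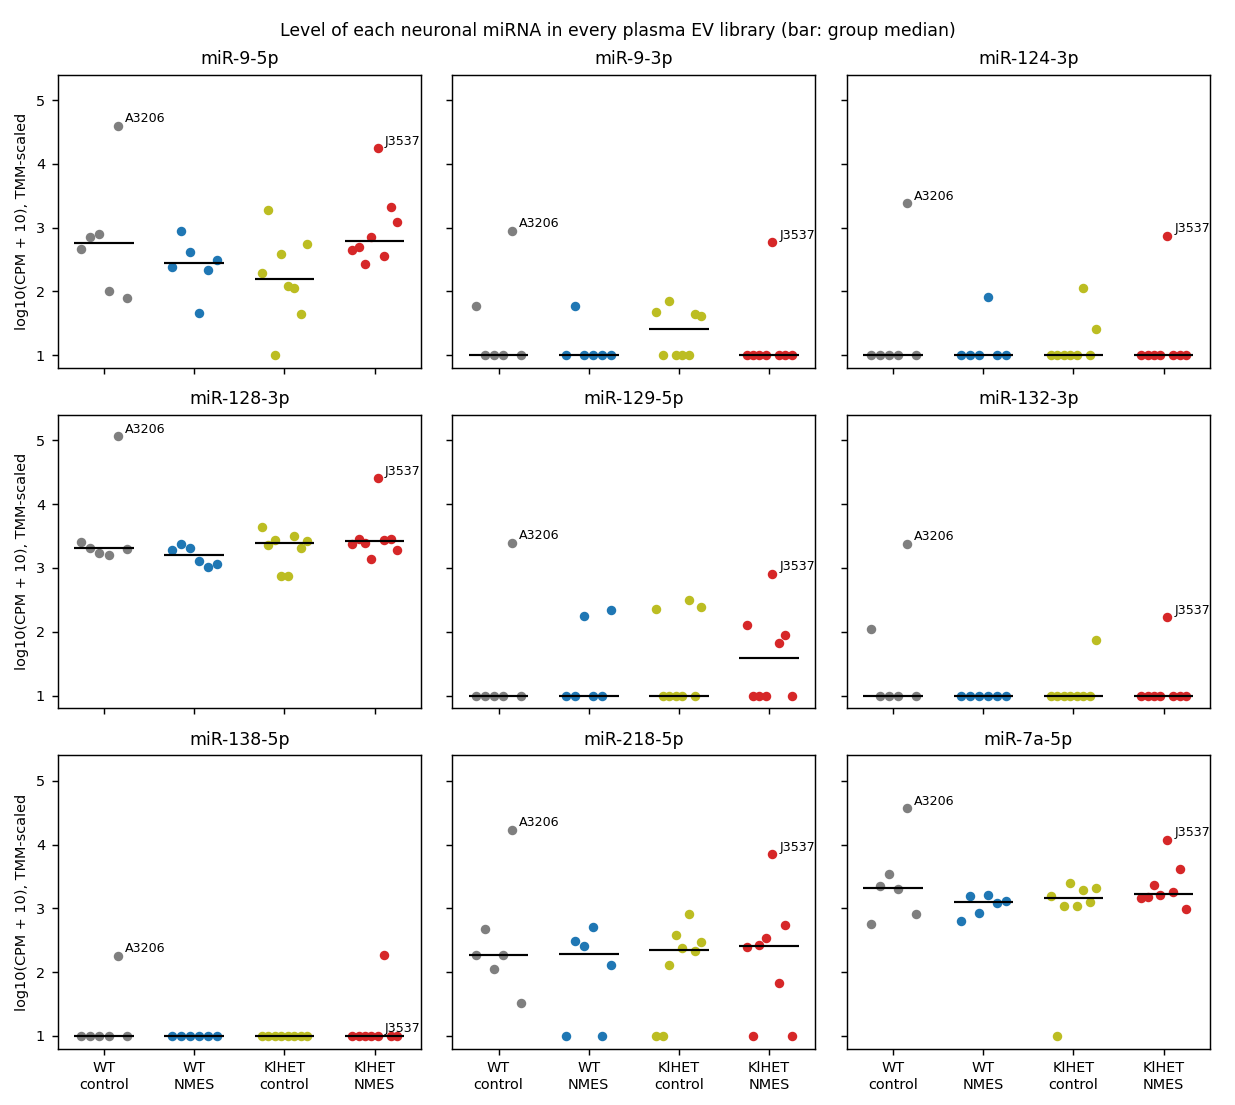
Level of each of the 9 members in every library by group (points, log10 of CPM + 10 with TMM scaling; bars, group medians; a value of 1 is 0 counts). A3206 is at the top of the WT control column in all 9 panels, and J3537 of the KlHET NMES column in 8, the exception being miR-138-5p, where it has 0 counts.

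The members kept a similar but not identical order in the libraries where they were high. In A3206, 53.3% of the 9-member counts were miR-128-3p (exact 95% binomial interval, 52.5 to 54.1%), 18.2% miR-9-5p (17.6 to 18.8%), 16.9% miR-7a-5p (16.3 to 17.5%) and 7.80% miR-218-5p (7.38 to 8.23%). In J3537 these shares were 39.7% (36.9 to 42.5%), 27.2% (24.8 to 29.8%), 18.5% (16.4 to 20.8%) and 10.99% (9.29 to 12.9%). In both libraries miR-128-3p led, miR-9-5p came ahead of miR-7a-5p, and the intervals for miR-128-3p and miR-9-5p did not overlap between them.

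In the 26 other libraries summed (2719 counts), miR-128-3p made up 48.3% (46.4 to 50.2%) and miR-7a-5p 35.7% (33.9 to 37.6%). miR-9-5p took 9.23% there (8.17 to 10.4%) and miR-218-5p 4.49% (3.74 to 5.33%). miR-124-3p was 0.147% of the sum (0.0401 to 0.376%), against 1.09% in A3206 (0.934 to 1.27%) and 1.15% in J3537 (0.629 to 1.92%). Against this pool, A3206 and J3537 held more miR-9-5p, miR-218-5p and miR-124-3p and less miR-7a-5p for their sum, by intervals that did not overlap and that cover counting error only. Single libraries of the pool, with far fewer counts each, spread more widely: the miR-9-5p share reached that of A3206 in 3 of the 26, the miR-218-5p share in 6 and the miR-124-3p share in 2, and the miR-7a-5p share was as low as in A3206 in 2. The share of miR-9-3p among both miR-9 arms was 2.15% in A3206 (1.65 to 2.75%), 3.21% in J3537 (1.61 to 5.67%) and 3.09% in the others (1.34 to 5.995%), intervals that overlapped.

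**Figure D3:**
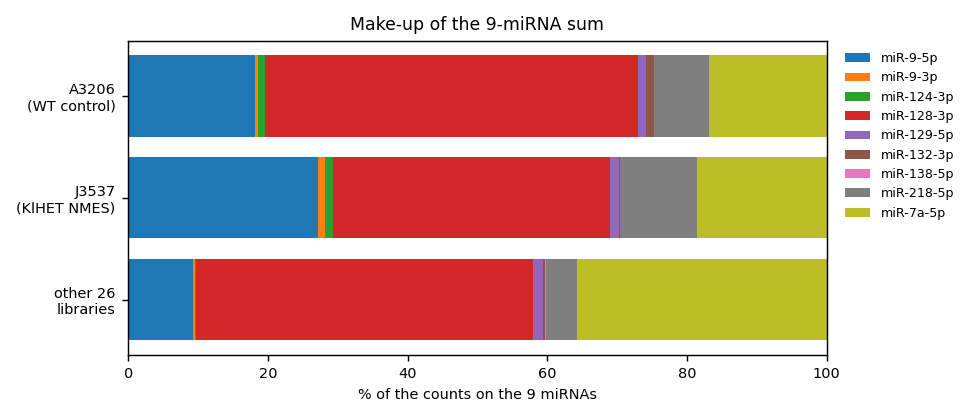
Make-up of the counts on the 9 members in A3206, J3537 and the other 26 libraries summed (stacked bars, % of the 9-member counts). miR-128-3p is the widest segment in all 3 bars, at 53.3%, 39.7% and 48.3%, and miR-7a-5p widens from 16.9% in A3206 to 35.7% in the other libraries.

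The summed counts of precursor entries and of opposite arms from these loci were also highest in A3206 and next highest in J3537. Of the 17 precursor entries, 13 had counts in A3206 (418 in all) and 10 in J3537 (22 in all), with at most 14 counts in any other library (J3524). mir-128-1 had 99 counts in A3206 and mir-128-2 had 18, whereas mir-9-1, mir-9-2 and mir-9-3 (21, 21 and 20 counts) and the 3 mir-124 entries (38 each) were nearly equal, so reads common to near-identical hairpins cannot be told apart there. miR-132-5p, the opposite arm of miR-132-3p, had 87 counts in A3206, 6 in J3537 and at most 4 in another library. Of the 12 opposite arms listed, 6 were in the table, of which all 6 had counts in A3206 and miR-132-5p alone in J3537.

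Other RNAs known from the brain were examined as lists, which were chosen with earlier results of these data known. Among 15 other neuronal miRNAs, 14 were in the table, all 14 had counts in A3206 and 10 in J3537, and 11 of the 14 had their highest CPM in A3206. miR-7b-5p, the seed relative of miR-7a-5p, had 390 counts in A3206, 29 in J3537 and at most 8 elsewhere. miR-383-5p had 39, 3 and at most 1, and miR-488-3p had 15, 2 and 0.

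The list also held miRNAs that many tissues express: miR-26a-5p had 4590 counts in A3206 (65512 CPM), 498 in J3537 (26283 CPM) and 5312 CPM at the median of the other 26 libraries. Summed, the list reached 79828 CPM in A3206 and 33408 in J3537, above the 3186 to 15739 CPM of the others. Of its 3 entries that could be tested, miR-26a-5p was called in 1 comparison, lower in KlHET than in WT among controls (log2 difference of -1.79, adjusted p = 0.020, edgeR). In that comparison 24.8% of all 129 entries were called. The WT control A3206 stood far above the 13720 CPM that miR-26a-5p reached at most in the other 26 libraries, and its estimate without A3206 is not given here. Neither miR-125b-5p nor miR-181a-5p was called in any comparison.

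Markers of other brain cells were counted as well. Of the 5 oligodendrocyte and glial miRNAs, 4 were in the table, of which 2 had their highest CPM in A3206. miR-338-5p had 12 counts in A3206 (171 CPM) and 5 in J3537 (264 CPM), below the 519 CPM reached among the other libraries. Within this list miR-219a-2-3p, of oligodendrocytes, had 73 counts in A3206, 1 in J3537 and up to 6 elsewhere, while the highest summed level belonged to J3524 (8859.8 CPM, 236 of whose counts were miR-23b-3p) ahead of A3206 (5238 CPM). miR-204-5p, of the choroid plexus, had 69 counts in A3206, 4 in J3537 and up to 2 elsewhere. The 17 Snord116-like entries, copies of an imprinted snoRNA expressed in neurons, had the same counts in 13 of 17 cases, so their sums count shared reads repeatedly. Snord116l1 had 115 counts in A3206, 11 in J3537, 5 in J3527 and 0 in most libraries.

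Markers of blood, liver, muscle and vessel were not raised in the same way. A3206 ranked 21st of 28 for the sum of 6 erythroid miRNAs (50040 CPM; 35469 to 132366 in the 26 others), 25th for 6 leukocyte and platelet miRNAs (2169 CPM; 1388 to 6411), and 26th for 3 liver miRNAs (20710 CPM; 8105 to 207515). It ranked 26th for 6 skeletal muscle miRNAs (2583 CPM; 2335 to 47378) and 8th for 2 endothelial miRNAs (6052 CPM; 2203 to 9048). J3537 ranked 28th for the erythroid and the liver sum, 19th for leukocytes and platelets, 4th for skeletal muscle and 13th for endothelium. The part of these marker levels in the members' results was not tested.

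**Figure D4:**
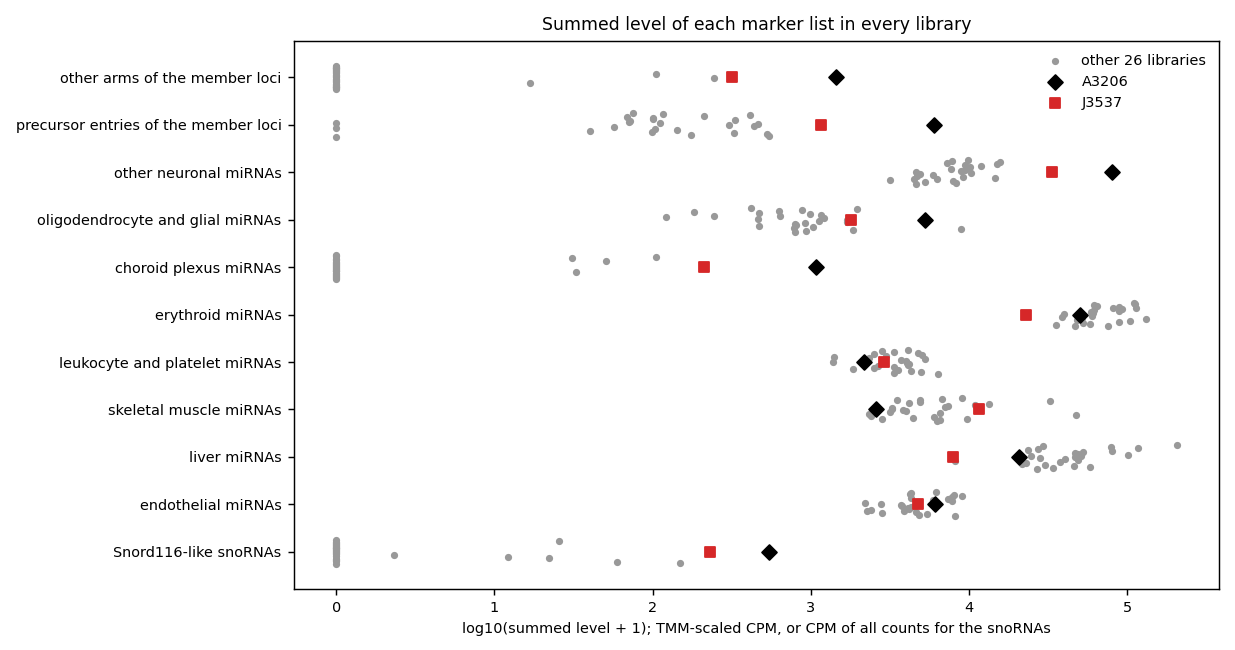
Summed level of each marker list in every library (x axis, log10 of the level + 1, in TMM-scaled CPM or, for the Snord116-like snoRNAs, in CPM of all counts; grey, the 26 other libraries; diamond, A3206; square, J3537). A3206 and J3537 rank first and second for the neuronal, opposite-arm, precursor, choroid plexus and snoRNA lists, and lie within or below the grey points for the erythroid, leukocyte, muscle, liver and endothelial lists. For the oligodendrocyte and glial list they rank 2nd and 5th.

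Across the 28 libraries, the miRNAs whose ranks followed the members best were given by Spearman's rho of log2 CPM, as a description in libraries that share their counting noise and scaling. For miR-218-5p the closest entries were miR-7a-5p (rho = 0.66), miR-127-3p (0.58) and miR-23b-3p (0.39), and for miR-7a-5p they were miR-218-5p (0.66), miR-127-3p (0.56) and the precursor mir-139 (0.53). For miR-9-5p they were miR-26b-5p (0.46), miR-99a-5p (0.38) and miR-181a-5p (0.37), and for miR-128-3p miR-361-3p (0.45), miR-191-5p (0.45) and let-7g-5p (0.35). Among the 4 tested members the other pairs had rho of 0.22 to 0.33. Over the 26 libraries without A3206 and J3537, rho was 0.58 for miR-218-5p with miR-7a-5p and 0.030 to 0.16 for the other pairs of members, and it was lower than over all 28 for each of the named neighbours.

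Group comparisons were fitted with edgeR's quasi-likelihood test across all 129 miRNA entries that passed the filter, with p-values adjusted over all 129 by the Benjamini-Hochberg method and an adjusted p under 0.05 as the call. Of the members, miR-9-5p, miR-128-3p, miR-218-5p and miR-7a-5p could be tested. The study gives its sample sizes as biological replicates, and the p-values measure the spread between these libraries. The 6 comparisons share control or NMES samples, so their estimates are not independent of one another.

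The first comparison asked whether NMES changed the members in WT mice. All 4 had negative estimates, with a median log2 difference of -3.84 against -0.16 over all 129 entries, and 0 of 4 were called, beside 0% of all entries. The estimate was -4.36 for miR-9-5p (SE 1.37, adjusted p = 0.073, edgeR), -3.98 for miR-218-5p (SE 1.45, adjusted p = 0.10), -3.70 for miR-128-3p (SE 0.98, adjusted p = 0.069) and -2.69 for miR-7a-5p (SE 0.79, adjusted p = 0.069). At an unadjusted p under 0.05 all 4 members passed, beside 17.1% of entries. DESeq2 called miR-7a-5p (-2.68, adjusted p = 0.034), beside 3.1% of entries, and gave the other 3 members no adjusted p.

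These estimates rested on A3206. Without it they were -0.15 for miR-9-5p, -0.21 for miR-128-3p, -0.43 for miR-7a-5p and 0.18 for miR-218-5p (adjusted p from 0.91 to 0.94, edgeR). Without another WT control, A3198, 3 members were called (miR-9-5p, miR-128-3p and miR-7a-5p, adjusted p of 0.035, 0.033 and 0.033), and without J3537 miR-128-3p was (adjusted p = 0.038). Over all entries, 0 were called higher and 9 lower of 137 without A3198, and 0 higher and 1 lower of 126 without J3537. With TMM factors computed over all RNA classes, 4 of 4 members were called, beside 0 entries higher and 13 lower of all 129.

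In KlHET mice NMES libraries had positive estimates for all 4 members, with a median of 1.59 against 0.05 over all entries, and 0 of 4 were called, beside 4.65% of entries. The estimate was 3.39 for miR-9-5p (SE 1.22, adjusted p = 0.15, edgeR), 2.02 for miR-218-5p (SE 1.22, adjusted p = 0.58), 1.16 for miR-128-3p (SE 0.79, adjusted p = 0.69) and 1.08 for miR-7a-5p (SE 0.66, adjusted p = 0.58). At an unadjusted p under 0.05, miR-9-5p passed, beside 10.9% of entries. DESeq2 called 0 members, having given an adjusted p to miR-7a-5p alone (estimate 1.16), beside 0.775% of entries. Its estimates for the others were 1.19 for miR-9-5p, 0.0085 for miR-128-3p and -0.33 for miR-218-5p, which turned the direction of the last.

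Here the values rested in part on J3537, without which they were 1.71 for miR-9-5p, 0.15 for miR-128-3p and 0.50 for miR-7a-5p (adjusted p from 0.59 to 0.99, edgeR), while miR-218-5p no longer passed the filter. Without A3206, a WT library that enters this comparison through the shared dispersion and scaling, miR-9-5p was called (3.50, adjusted p = 0.015). In that fit 1 entry was called higher and 9 lower of 135.

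Averaged over both genotypes, the NMES estimates were -1.27 for miR-128-3p (SE 0.60, adjusted p = 0.28, edgeR), -0.98 for miR-218-5p (SE 0.91, adjusted p = 0.62), -0.80 for miR-7a-5p (SE 0.50, adjusted p = 0.45) and -0.48 for miR-9-5p (SE 0.86, adjusted p = 0.83). Of the 4 members 0 were called, beside 0% of entries. DESeq2, which gave an adjusted p to miR-7a-5p alone among them, called 0 members, beside 0% of entries. At an unadjusted p under 0.05 in edgeR, miR-128-3p passed, beside 17.1% of entries. Without A3206 all 4 estimates turned positive, from 0.38 for miR-7a-5p to 1.67 for miR-9-5p, and that of miR-9-5p was also positive with library size alone as the scaling (0.25).

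The difference of the NMES effect between genotypes was called for 3 members: 7.74 for miR-9-5p (SE 1.83, adjusted p = 0.028, edgeR), 4.86 for miR-128-3p (SE 1.24, adjusted p = 0.032) and 3.77 for miR-7a-5p (SE 1.02, adjusted p = 0.040). For miR-218-5p it was 5.998 (SE 1.88, adjusted p = 0.075). These 3 members were the only ones called of all 129 entries, which is 2.33%, and the median over the 4 members was 5.43 against 0.10 over all entries. A positive value means a higher NMES minus control difference in KlHET than in WT.

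A3206, a WT control, and J3537, a KlHET NMES library, enter this difference with the same sign. Without A3206 it was 3.65 for miR-9-5p, 1.49 for miR-128-3p and 1.62 for miR-7a-5p (adjusted p of 0.27, 0.48 and 0.38, edgeR), and without J3537 5.69, 3.47 and 2.85 (0.11, 0.11 and 0.12). Without both, it was 1.71 for miR-9-5p (SE 1.10), 0.32 for miR-128-3p (SE 0.50) and 0.88 for miR-7a-5p (SE 0.61), with adjusted p of 0.67, 0.90 and 0.67, and 0 of 3 tested members and 0 of 133 entries were called. The calls were also lost when any one of the WT NMES libraries A3203, A3205, A3207 or A3209 was left out, with miR-9-5p at 7.28 to 7.56 and adjusted p of 0.0504 to 0.0684, and the call of miR-7a-5p also without A3199 or A3201.

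Among control libraries, all 4 tested members were called lower in KlHET than in WT, beside 24.8% of all entries, of which 21 were lower and 11 higher. The estimate was -4.66 for miR-9-5p (SE 1.29, adjusted p = 0.010, edgeR), -3.53 for miR-218-5p (SE 1.29, adjusted p = 0.044), -3.17 for miR-128-3p (SE 0.86, adjusted p = 0.010) and -2.34 for miR-7a-5p (SE 0.71, adjusted p = 0.015). The median over the 4 members was -3.35, against -0.21 over all entries.

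The group medians did not all follow these estimates: those of WT and KlHET controls were 568 and 148 CPM for miR-9-5p and 2110.2 and 1425 CPM for miR-7a-5p, but 2039.5 and 2477 CPM for miR-128-3p and 176 and 216 CPM for miR-218-5p. Without A3206 the estimates were 0.26 for miR-128-3p, 0.52 for miR-218-5p, -0.51 for miR-9-5p and -0.17 for miR-7a-5p (adjusted p of 0.78, 0.78, 0.76 and 0.84, edgeR), so 0 of 4 members were called and the direction of 2 turned. Over all entries of that fit, 15 were called higher and 10 lower of 135. The call of miR-218-5p had an adjusted p of 0.051 to 0.091 in 17 others of the 25 fits, each without 1 library, in which it passed the filter. Without A3206 and J3537 together, 0 of 3 tested members but 24 of 133 entries were called.

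Among NMES libraries, the 4 estimates of KlHET minus WT were positive and did not pass the test. They were 3.08 for miR-9-5p, 2.47 for miR-218-5p, 1.69 for miR-128-3p and 1.43 for miR-7a-5p, and 0 of 4 were called, beside 3.1% of entries (edgeR). At an unadjusted p under 0.05, miR-9-5p passed, beside 15.5% of entries. DESeq2, which gave an adjusted p to miR-7a-5p alone among the members, called 0 of them, beside 13.2% of entries. The edgeR fit was repeated without these libraries. Without J3537 the estimates were 1.28 for miR-9-5p, 0.58 for miR-128-3p and 0.79 for miR-7a-5p (adjusted p from 0.58 to 0.76), and without A3206 as well they were 1.27, 0.58 and 0.71 (adjusted p = 0.40 each).

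**Figure D5:**
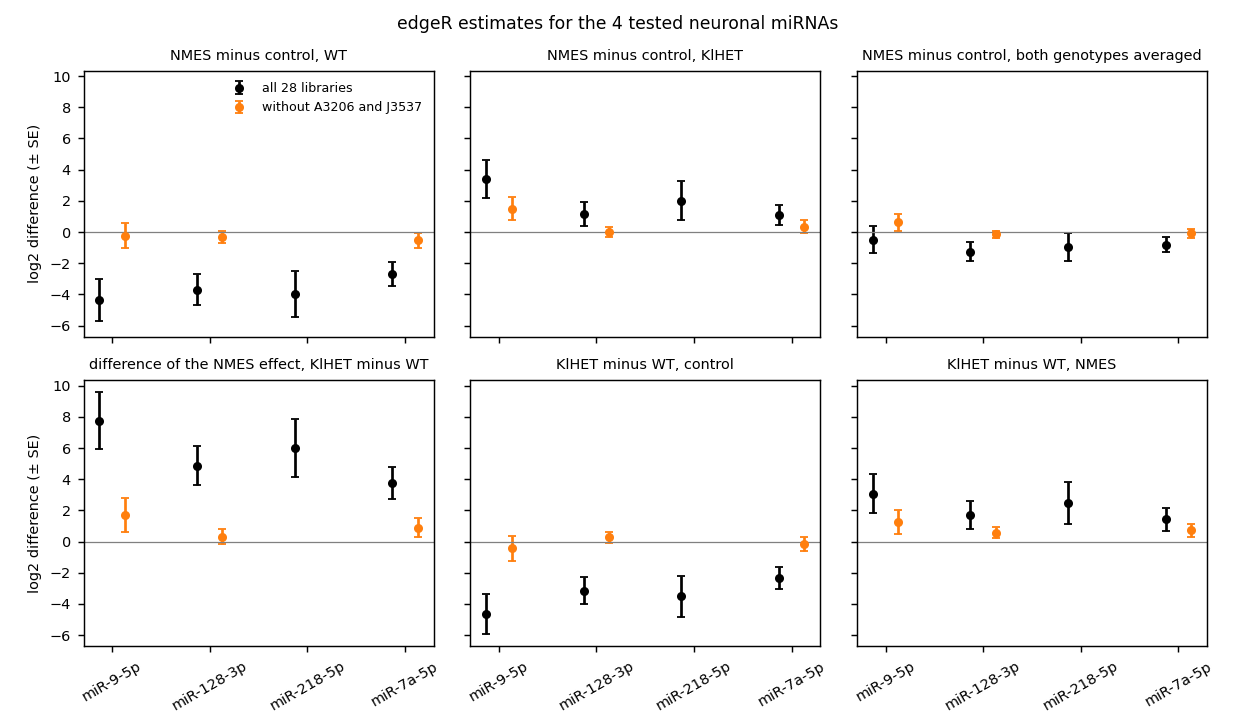
edgeR log2 differences (points, with SE bars) for the 4 tested members in the 6 comparisons, over all 28 libraries (black) and without A3206 and J3537 (orange; miR-218-5p then fails the filter). The black points reach 7.74 for miR-9-5p in the difference between genotypes, and the orange points lie between -0.53 and 1.71.

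Without A3206 and J3537, 0 of the 3 members still tested were called in any of the 6 comparisons, and 0 passed at an unadjusted p under 0.05 (edgeR). Of all 133 entries in that fit, 0 to 24 were called and 9 to 41 passed unadjusted, depending on the comparison. With 3 members tested, 0 says little about the members as a set. For miR-128-3p the estimates without both libraries were -0.31 for NMES in WT (SE 0.37) and 0.0025 in KlHET (SE 0.33). The largest without both libraries in either genotype was that of miR-9-5p with NMES in KlHET, at 1.48 (SE 0.74, adjusted p = 0.37, edgeR), where 7 NMES libraries lay at 260.1 to 2092 CPM and 8 controls at 0 to 1851 CPM.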

How the data were processed

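Small RNA libraries (NEBNext kit, single-end reads) were made from EVs isolated from plasma. The authors' deposited table holds raw counts per RNA entry, made with STAR 2.5.3a and COMPSRA 1.0.3 on mm10, and the submitters' notes also name DESeq2 1.42.1. All 28 columns were matched to a sample and 0 were left over. Entries beginning mmu-miR, mmu-mir or mmu-let were taken as miRNAs, filtered with filterByExpr, scaled by TMM and fitted with glmQLFit and glmQLFTest over the 4 groups (edgeR 4.0.16, limma 3.58.1, R 4.3.3). The fit was also run on simulated counts with planted NMES changes that were the same in both genotypes. That simulation planted no library far from its group, and the averaged NMES comparison alone was scored, so it does not cover the other comparisons or a library such as A3206. SEs were back-calculated from the estimate and its F value. DESeq2 1.42.0 was an alternative, beside other scalings, filters, a robust fit, mature arms alone, the compared groups alone and leaving out each library. Levels, intervals and figures used Python 3.11.15, numpy 2.4.6, pandas 2.3.3, scipy 1.17.1 and matplotlib 3.10.9. Loci come from RefSeq and overlapping genes from GENCODE vM21, both on GRCm38. All 9 members were named. The 3 tested entries most like each tested member were named by rho, and list entries only where a library held 10 or more counts. Members and lists were chosen with earlier results of these data known.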

Additional observations from a re-analysis of the deposited data

Results flagged for a closer look

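Of 33 combinations of member and group that had any counts, 24 had a highest library whose gap to the next was wide for the range of its group by Dixon's criterion. That criterion is set so that chance passes about 1 in 20 groups of normally spread values, a rate that does not hold for sparse counts: the 10 combinations with a single library above 0 counts pass by construction, and the other 14 came from 23 combinations. In WT controls the library was A3206 for all 9 members, at 39636 CPM for miR-9-5p, 871 for miR-9-3p, 2384 for miR-124-3p, 116380 for miR-128-3p, 2483 for miR-129-5p, 2384 for miR-132-3p, 171 for miR-138-5p, 17013 for miR-218-5p and 36881 for miR-7a-5p. In KlHET NMES it was J3537 for 8 members, at 17522 CPM for miR-9-5p, 581 for miR-9-3p, 739 for miR-124-3p, 25544 for miR-128-3p, 792 for miR-129-5p, 158 for miR-132-3p, 7072 for miR-218-5p and 11928 for miR-7a-5p.

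The other 7 rested on 1 to 8 counts each. They were miR-138-5p in KlHET NMES (J3514, 173 CPM), miR-9-5p in KlHET controls (J3517, 1851 CPM), miR-124-3p and miR-218-5p in KlHET controls (J3528, 102 and 819.6 CPM), miR-132-3p in KlHET controls (J3578, 63.2 CPM), miR-9-3p in WT NMES (A3201, 49.4 CPM) and miR-124-3p in WT NMES (A3205, 70.7 CPM).

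Over all 28 libraries, the edgeR interaction test called the NMES effect different between KlHET and WT for miR-9-5p (7.74), miR-128-3p (4.86) and miR-7a-5p (3.77), on the log2 scale. Without A3206 and J3537 the values were 1.71, 0.32 and 0.88 (adjusted p of 0.67, 0.90 and 0.67, edgeR), and 0 members were called, beside 0 of 133 entries. The calls were also lost without A3206 alone (adjusted p of 0.27, 0.48 and 0.38, edgeR).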

How the results depend on the processing

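The number of members called for NMES in WT (0 of 4 tested) became 1 with DESeq2, 4 with TMM over all RNA classes and 6 of 9 with no filter. Over all entries, DESeq2 called 1 higher and 3 lower of 129, and TMM over all RNA classes 0 higher and 13 lower. With no filter, 2 entries were called higher and 17 lower of 1093. For NMES in KlHET the number of members called was 1, averaged over genotypes 2 and for KlHET against WT with NMES 1 with no filter. In the same order, the entries called higher and lower of 1093 were 1 and 19, 0 and 14, and 4 and 3. The count for the difference of the NMES effect (3) became 1 with DESeq2, 1 with library size alone, 6 with no filter and 0 without A3206 and J3537. Over all entries, DESeq2 and library size alone each called 1 higher and 0 lower of 129. With no filter it was 14 higher and 15 lower of 1093, and without both libraries 0 of 133. The count for KlHET against WT in controls (4) became 1 with DESeq2, 2 with library size alone, 1 with only the groups compared and 0 without A3206 and J3537. Over all entries, DESeq2 called 13 higher and 20 lower of 129, and library size alone 5 higher and 9 lower. With only the groups compared it was 11 higher and 9 lower of 111, and without both libraries 24 of 133. DESeq2 gave miR-9-5p, miR-128-3p and miR-218-5p no adjusted p in any comparison, so its counts of members rest on miR-7a-5p. For the others, a lower count with DESeq2 is not a lost call. The DESeq2 estimate for miR-218-5p with NMES in KlHET was -0.33, against 2.02.

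Averaged over genotypes, miR-9-5p turned from -0.48 to 0.25 with library size alone and to 0.63 without A3206 and J3537. For KlHET against WT in controls, miR-128-3p turned from -3.17 to 0.26 without both. With each library left out in turn, members called ranged from 0 to 3 for NMES in WT, 0 to 1 for NMES in KlHET, 0 to 3 for the difference of effects and 0 to 4 for KlHET against WT in controls. Over all entries of these fits (126 to 140 each), 0 were called higher and 0 to 9 lower for NMES in WT, and 0 to 1 higher and 0 to 10 lower for NMES in KlHET. For the difference of effects it was 0 to 3 higher and 0 to 3 lower, and for KlHET against WT in controls 9 to 16 higher and 10 to 22 lower. miR-218-5p ranged from -4.30 to 0.18 for NMES in WT and from -3.68 to 0.52 for KlHET against WT in controls, where miR-128-3p ranged from -3.31 to 0.26. Averaged over genotypes, miR-9-5p ranged from -1.13 to 1.67, miR-128-3p from -1.58 to 0.53, miR-218-5p from -1.09 to 1.17 and miR-7a-5p from -0.93 to 0.38. The fit with only the groups compared does not apply to the averaged effect and the difference of effects. Apart from leaving out libraries, where values show that A3206 or J3537 carried the result, the cause was not tested. No paired analysis was run, because the study assigned mice at random to control or NMES and the labels name no pairs. The 5 members below the filter lay at or near the 3-count floor in most libraries, and of these miR-124-3p and miR-132-3p were among those called with no filter. In WT controls A3206 held 167 of 167 counts of miR-124-3p and 167 of 171 of miR-132-3p. No unfiltered fit without A3206 was run, so the calls with no filter cannot be told apart from the level of that library.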
